A study of Mus musculus with 8 samples.

Results

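Described here are 35 genes of the p53 pathway and of apoptosis, chosen by name, among the 55487 genes counted in RNA from fetal mouse germ cells. All 35 were present in the count table, and 34 had enough reads to be tested. The cells came from testes of C57BL/6 mice homozygous for an Oct4-eGFP reporter, a green fluorescent protein under control of Oct4 (Pou5f1), a gene active in pluripotent and germ cells, and were purified by flow sorting. There were 4 libraries labelled WT, from littermates with the reporter alone, and 4 labelled KO, from mice that were also null for the X-linked homeobox gene Rhox10. The fetal age, and whether each library came from its own animal, were not given in the sources used here, so p-values measure the spread between these libraries, which may be technical. The question was whether this cell-death network differed in RNA level between the labels.

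The p53 protein is a transcription factor that accumulates after DNA damage and other stress and switches on genes of cell-cycle arrest, repair and death. MDM2 and MDM4 hold it down, MDM2 by marking it for degradation and MDM4 mainly by covering its activation domain. In the mitochondrial route to death, BH3-only proteins neutralise the survival members of the BCL2 family and free the effectors BAX and BAK to open the outer mitochondrial membrane, after which APAF1 and caspase-9 start the caspase cascade. Death receptors such as FAS start it from the cell surface through caspase-8. In mice, fetal germ cells are known to be lost by apoptosis that depends on Bax.

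The libraries held 16346977 to 20311338 counts, and levels are given as CPM, counts relative to the library total with a correction for library composition (TMM). Rhox10 itself had 18, 25, 19 and 17 counts in WT and 14, 10, 18 and 22 in KO libraries (log2 fold change -0.28, edgeR adjusted p = 0.767), so its reads do not check the labels, and the part of the gene that the null allele lacks is not stated. All 12 germ-cell markers had reads, and Ddx4 was the highest of them per length in the WT libraries. It was read at 14.8 ± 1.13 CPM per kb of exon in WT and 14.4 ± 0.322 in KO libraries (SD, n = 4). Pou5f1, the gene behind the reporter, stood at 4.47 ± 0.438 and 5.08 ± 0.343 CPM per kb. Nanos2, at 5 to 12 counts a library, was too low to be tested. Markers of other cells were read too, some at higher levels: Cyp17a1, a steroid enzyme of Leydig cells, stood at 474 ± 4.29 CPM per kb and Amh, a hormone of Sertoli cells, at 84.5 ± 2.87 with the WT label. The levels of the 35 genes are therefore those of the sorted material as a whole, and in such bulk RNA fewer cells of a type and less RNA per cell cannot be told apart. Several marker lists moved with the label, counted here by calls at an edgeR adjusted p under 0.05. Of all genes tested, 2.35% were called higher and 2.8% lower with the KO label. Of 12 markers of tubular and duct epithelium 11 rose, with a summed level of 67.4 to 74.3 CPM in the WT and 118.7 to 133.6 CPM in the KO libraries. Of 9 erythroid markers 5 fell (226 to 240 against 94.95 to 99.91 CPM), of 10 Leydig and interstitial markers 5 fell (3957 to 4005 against 3670 to 3724 CPM), and of 10 Sertoli markers 2 fell (678 to 707 against 655 to 681 CPM). Endothelial markers rose in 2 of 8 cases (192 to 207 against 218 to 223 CPM). Of 9 macrophage and leukocyte markers only 6 were tested, and 1 fell (27.9 to 30.8 against 21.3 to 25.5 CPM). All 6 had log2 fold changes below 0. Of the 12 germ-cell markers, 11 of them tested, 2 rose and 1 fell (166 to 181 against 168 to 179 CPM). Those that rose were Dazl and Dppa3, with log2 fold changes of 0.37 and 0.41, and Tdrd1 fell, at -0.43. No marker was at 0 in all libraries, and the part of these cells in the differences below was not tested.

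Because p53 is the transcription factor the list is named for, the starts of their genes were searched for its site. The letters searched were the 10-base p53 consensus decamer, of which p53 binds a pair, and the window ran from 250 bases before to 50 bases after each start in RefSeq (build GRCm38.p6). The decamer reads the same on both strands. Of the 35 genes 29 had a window in that table (all but Zmat3, Trp53inp1, Perp, Pmaip1, Bik and Tnfrsf10b), and 7 of them, 24.1%, held at least 1 exact decamer, against 9.55% of the 27025 genes with a window. An exact decamer beside a second one with at most 1 differing base and at most 13 bases between was found in 1 of the members' 42 windows (2.38%) and in 0.627% of all windows. That member was Ccng1. The list was chosen to include known p53 targets, so a share above that of all genes may come from the choice alone. Members also had more windows per gene (42 for 29 genes, against 32851 for 27025). The stretches are shown as the members whose start holds these letters. Those of Sesn1 and Bmf lie at internal starts, inside genes that span chromosome 10, 41809935 to 41908424, and chromosome 2, 118528757 to 118549687. The Aen decamer lies after an upstream start and before a downstream start. Capitals mark the decamers and all are written 5′ to 3′ on the strand of the gene.

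Ccng1, chr11:40755452-40755491, minus strand: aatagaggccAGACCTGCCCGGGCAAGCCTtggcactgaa

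Mdm2, chr10:117710925-117710954, minus strand: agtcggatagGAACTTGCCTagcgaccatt

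Bax, chr7:45467080-45467109, minus strand: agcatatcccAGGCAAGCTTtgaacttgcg

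Aen, chr7:78895927-78895956, plus strand: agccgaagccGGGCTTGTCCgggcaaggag

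Bmf, chr2:118544781-118544810, minus strand: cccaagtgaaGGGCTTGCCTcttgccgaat

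Sesn1, chr10:41887256-41887285, plus strand: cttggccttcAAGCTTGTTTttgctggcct

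Trp53, chr11:69580274-69580303, plus strand: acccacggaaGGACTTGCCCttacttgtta

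Cdkn1a, chr17:29090918-29090957, plus strand: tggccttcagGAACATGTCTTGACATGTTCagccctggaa

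In Ccng1 the pair has no base between its decamers, and the first of them differs from the consensus at 1 base. Cdkn1a, which encodes the p53-induced cell-cycle inhibitor p21 and is not one of the 35, is shown for comparison, because its RNA is described below. The pair shown, at an alternative upstream start, differs from the consensus at 1 base of the second decamer. The first decamer of that pair also forms a pair with an exact decamer 12 bases before it. A match is a description of letters, not of binding. None of these 7 members passed the test of the next paragraphs, but only 2 members did, and 1 of those, Pmaip1, had no window to search.

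Between the labels, 2 of the 34 genes tested differed at an adjusted p under 0.05 in edgeR's quasi-likelihood test, with p-values adjusted over the 23190 genes that passed the filter on low counts. Both were higher with the KO label: Mdm4, the p53 inhibitor, by 1.08-fold, and Pmaip1, which encodes the BH3-only protein NOXA, by 1.33-fold. No member fell, and 32 did not pass. The share called, 5.88%, lies near the 5.14% of all genes tested that were called (2.35% higher and 2.8% lower), so the list as a whole did not stand out. Of the 34 log2 fold changes 16 were above 0 and 18 below, with a median of -0.02 against 0.00 for all genes. Groups did not overlap for 5 members (14.7%, against 9.44% of all genes), and 5 had an unadjusted p under 0.05 (14.7%, against 15.6%).

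**Figure D1:**
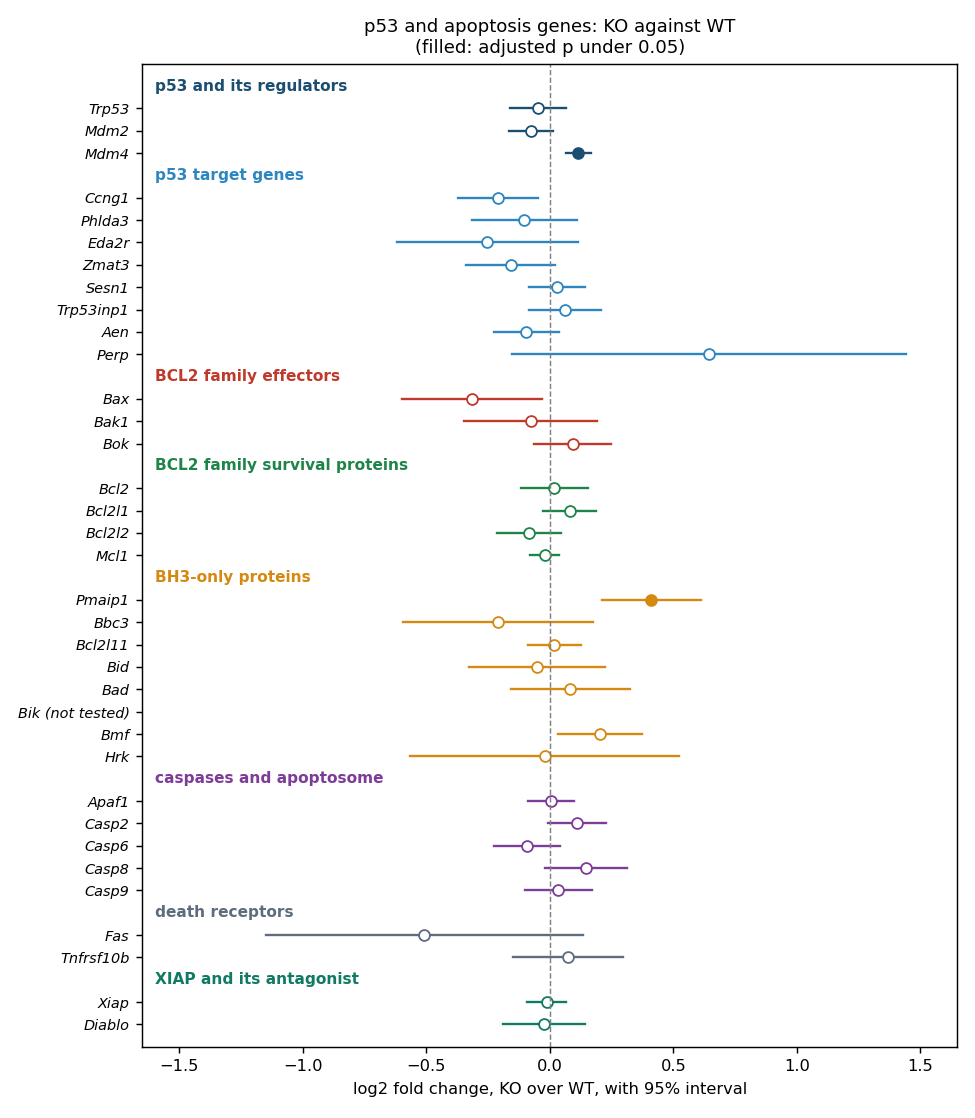
Log2 fold change, KO over WT, with its 95% interval, of the 34 genes tested, ordered by role (Bik is listed without a value), with filled points for an adjusted p under 0.05. Mdm4 (0.12) and Pmaip1 (0.41) are filled, and most other intervals cross 0.

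Most members without a call had narrow intervals, which cover only the spread between these libraries. That spread beyond counting noise, edgeR's common biological coefficient of variation, was 3.86% and may be technical. The 95% interval of the fold change, not adjusted for the number of genes, lay within 1.25-fold either way for 20 of the 32 and within 1.5-fold for 27. It reached past 1.5-fold for Eda2r, Bax, Bbc3, Perp and Fas, and past 2-fold for the last 2, which had 5 to 18 and 10 to 24 counts a library.

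Trp53 and its inhibitors were the first group. Trp53, the gene of p53 (chromosome 11, 69580359 to 69591873, GRCm38), was read at 29.4, 35.04, 32.8 and 34.6 CPM in WT replicates 1 to 4 and at 29.1, 33.1, 33.9 and 31.6 CPM in the KO libraries. The groups overlapped throughout (log2 fold change -0.05, 95% interval -0.16 to 0.07, edgeR adjusted p = 0.776). Mdm2, which encodes the ubiquitin ligase of p53 and is itself a p53 target, had 59.2, 61.6, 52.9 and 59.1 against 58.3, 53.7, 55.5 and 53.2 CPM. Its log2 fold change was -0.08 (95% interval -0.17 to 0.01, adjusted p = 0.422).

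Mdm4 (chromosome 1, 132959484 to 133030561, minus strand) was the most abundant of the 3, per length and in counts. It stood at 214, 216, 211 and 213 CPM in the WT libraries and at 224, 233, 236 and 233 CPM in the KO libraries. Every KO library lay above every WT library. The means were 213.8 ± 2.29 and 231.5 ± 5.13 CPM (SD, n = 4), a log2 fold change of 0.12 with a standard error of 0.03 and a 95% interval of 0.07 to 0.17 (edgeR adjusted p = 0.000593). The ratio of Mdm4 to Mdm2 counts within a library, into which no scaling enters, averaged 3.68 ± 0.207 with the WT and 4.20 ± 0.247 with the KO label, and 1 WT library (3.99) lay above the lowest KO library (3.84). Among genes above 1 log2 CPM, long genes were slightly higher with the KO label: the median log2 fold change rose from -0.04 in the sixth of genes with the shortest exons to 0.02 in the sixth with the longest, where Mdm4 with 14798 exon bases belongs. With an offset for length and GC content Mdm4 stood at 0.08 (adjusted p = 0.0291). A pseudogene entry, Mdm4-ps, took 306 to 417 counts a library against 3562 to 4554 for Mdm4, with a log2 fold change of 0.11 that did not pass (adjusted p = 0.508), and reads of both entries may be shared.

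**Figure D2:**
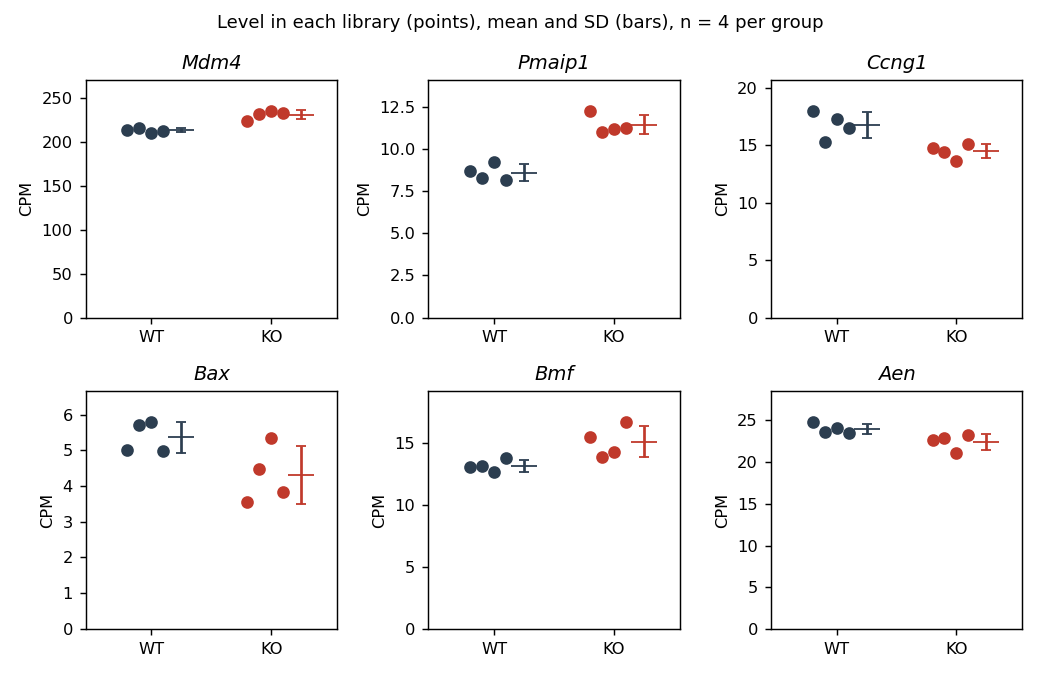
Level in CPM of 6 genes in each of the 8 libraries, with the mean and SD of each group (n = 4) beside the points. Groups do not overlap for Mdm4, Pmaip1, Ccng1, Bmf and Aen, while for Bax 1 KO library (5.36 CPM) lies among the WT libraries.

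None of the 8 p53 target genes passed the test, with 3 log2 fold changes above 0 and 5 below (median -0.10). Ccng1, which encodes cyclin G1 and carries the decamer pair shown above, had 18.0, 15.3, 17.3 and 16.5 CPM in WT and 14.8, 14.4, 13.7 and 15.1 in KO libraries. Groups did not overlap, but the difference did not pass over all genes (log2 fold change -0.21, 95% interval -0.37 to -0.05, unadjusted p = 0.0115, edgeR adjusted p = 0.137). Aen, an apoptosis-enhancing nuclease gene, also had groups that did not overlap, at 24.8, 23.6, 24.1 and 23.5 against 22.7, 22.9, 21.1 and 23.2 CPM. Its log2 fold change was -0.10 (adjusted p = 0.546). Sesn1, a stress-induced inhibitor of mTORC1 signalling, was the most abundant of the 8 per length, at 8.14 ± 0.443 and 8.32 ± 0.587 CPM per kb. Its libraries read 32.2, 34.9, 31.0 and 31.5 CPM in WT and 36.4, 31.7, 33.1 and 31.3 in KO libraries, and the groups overlapped (log2 fold change 0.03, adjusted p = 0.883). Phlda3, an inhibitor of AKT, stood at -0.10 and Zmat3, an RNA-binding protein gene, at -0.16 on the log2 scale, with adjusted p of 0.738 and 0.405. Trp53inp1, a stress-response cofactor gene, stood at 0.06 (adjusted p = 0.787) and the receptor gene Eda2r at -0.25 (0.569). Perp, a desmosome gene induced by p53, was the lowest at 0.454 ± 0.169 and 0.709 ± 0.319 CPM (SD, n = 4), and its log2 fold change of 0.64 has an interval of -0.15 to 1.44. Without 1 library at a time the log2 fold change ranged from -0.19 to -0.03 for Phlda3 (lowest without KO replicate 2, nearest 0 without WT replicate 1). The range was -0.24 to -0.077 for Zmat3, -0.43 to -0.19 for Eda2r and 0.39 to 0.91 for Perp, and none of these 4 genes passed in any of these fits.

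The BCL2 family divides into effectors, survival proteins and BH3-only proteins. The only call was of a BH3-only gene, and 1 call does not set that class apart. Among the effectors, Bax had 4.995, 5.70, 5.79 and 4.97 CPM in WT and 3.55, 4.48, 5.36 and 3.84 in KO libraries. In 3 KO libraries it lay below all WT libraries (log2 fold change -0.32, 95% interval -0.60 to -0.03, unadjusted p = 0.0292, edgeR adjusted p = 0.242). Bak1 (log2 fold change -0.08, adjusted p = 0.864) and Bok (0.09, 0.653) did not pass. Bok, a BAX-like gene, was the most abundant effector per length, at 8.80 ± 0.710 against 3.40 ± 0.279 CPM per kb for Bax in the WT libraries. Its libraries read 14.6, 15.9, 17.7 and 16.6 CPM in WT and 18.0, 17.8, 16.6 and 16.9 in KO libraries.

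None of the 4 survival genes passed, with 2 log2 fold changes above 0 and 2 below. Mcl1, whose short-lived protein restrains BAK and is the main partner of NOXA, was the most abundant of all 35 genes per length, at 41.4 ± 0.932 CPM per kb in WT and 40.7 ± 1.13 in KO libraries. It was read at 138, 141, 145 and 141 CPM in the WT and at 141, 135, 137 and 144 CPM in the KO libraries, and the groups overlapped. The log2 fold change was -0.02 with a 95% interval of -0.08 to 0.04 (adjusted p = 0.818). Bcl2l1, the gene of BCL-XL, stood at 7.87 ± 0.424 and 8.32 ± 0.250 CPM per kb (log2 fold change 0.08, adjusted p = 0.518). Bcl2l2, the gene of BCL-W, followed at -0.08 (adjusted p = 0.603). Bcl2 itself was the least abundant of the 4, at 2.41 ± 0.160 and 2.44 ± 0.0914 CPM per kb (log2 fold change 0.02, adjusted p = 0.940).

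Of the 8 BH3-only genes 7 were tested, 1 rose and none fell, where 2.35% and 2.8% of all genes tested were so called. Pmaip1 (chromosome 18, 66458533 to 66465565) was read at 8.73, 8.28, 9.26 and 8.15 CPM in the WT libraries, from 145, 167, 176 and 141 counts. In the KO libraries it stood at 12.3, 11.1, 11.2 and 11.3 CPM, all above the highest WT library. The means were 8.61 ± 0.503 and 11.5 ± 0.566 CPM (SD, n = 4), a log2 fold change of 0.41 with a standard error of 0.10 and a 95% interval of 0.21 to 0.61 (edgeR adjusted p = 0.00303). There were 16.5 ± 0.849 Mcl1 counts for each Pmaip1 count in the WT libraries and 12.2 ± 0.518 in the KO libraries, and these ratios, which need no scaling, did not overlap (15.7 to 17.3 against 11.5 to 12.7). With the mean of the markers of other cells as a covariate, Pmaip1 stood at 0.39 (adjusted p = 0.0144) and Mdm4 at 0.13 (0.000217). That mean joins 6 lists that moved in opposite directions, so it does not gauge how many other cells there were.

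The other BH3-only genes gave no call. Bmf, a BH3-only gene linked to the cytoskeleton, had 13.0, 13.1, 12.6 and 13.8 CPM in WT and 15.5, 13.9, 14.3 and 16.7 in KO libraries. Groups did not overlap, although WT replicate 4 and KO replicate 2 lay close (log2 fold change 0.20, unadjusted p = 0.0195, edgeR adjusted p = 0.190). Bbc3, the gene of PUMA and with NOXA the classic BH3-only target of p53, stood at 2.35, 2.87, 3.21 and 2.60 CPM in the WT libraries and 2.996, 2.45, 1.94 and 2.26 in the KO libraries. Its direction was opposite to that of Pmaip1, with groups that overlapped (log2 fold change -0.21, 95% interval -0.59 to 0.18, adjusted p = 0.689). Bcl2l11, the gene of BIM, was the most abundant of the class per length at 4.42 ± 0.207 and 4.48 ± 0.234 CPM per kb. It had 37.4, 36.5, 34.1 and 34.2 against 35.9, 38.7, 35.1 and 34.3 CPM (log2 fold change 0.02, adjusted p = 0.928). Bid, which links death receptors to mitochondria, and Bad, a target of growth-factor signalling, stood at -0.05 and 0.08 (adjusted p = 0.914 and 0.8292). Hrk, known from neurons, had 12 to 35 counts a library (log2 fold change -0.02, 95% interval -0.57 to 0.52). Bik had 5 to 13 counts and was left out by the filter on low counts, with 0.540 ± 0.177 CPM in the WT and 0.545 ± 0.211 in the KO libraries (SD, n = 4). Exons of Bid, Bad, Bak1 and Diablo overlap those of a gene on the opposite strand over 17.7, 20.5, up to 18.2 and 21.5% of their bases, and whether the counting used strand is not stated, so these values are uncertain. Diablo also shares 19.4% with Gm49027 on its own strand (199 counts over all libraries against 2167 for Diablo). Whether these are partly the same Diablo bases was not examined. Bcl2l2 shares 13.3% with Gm20521 and Bax 12.2% with Gm45808, also on the same strand, and both partners had 0 counts.

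**Figure D3:**
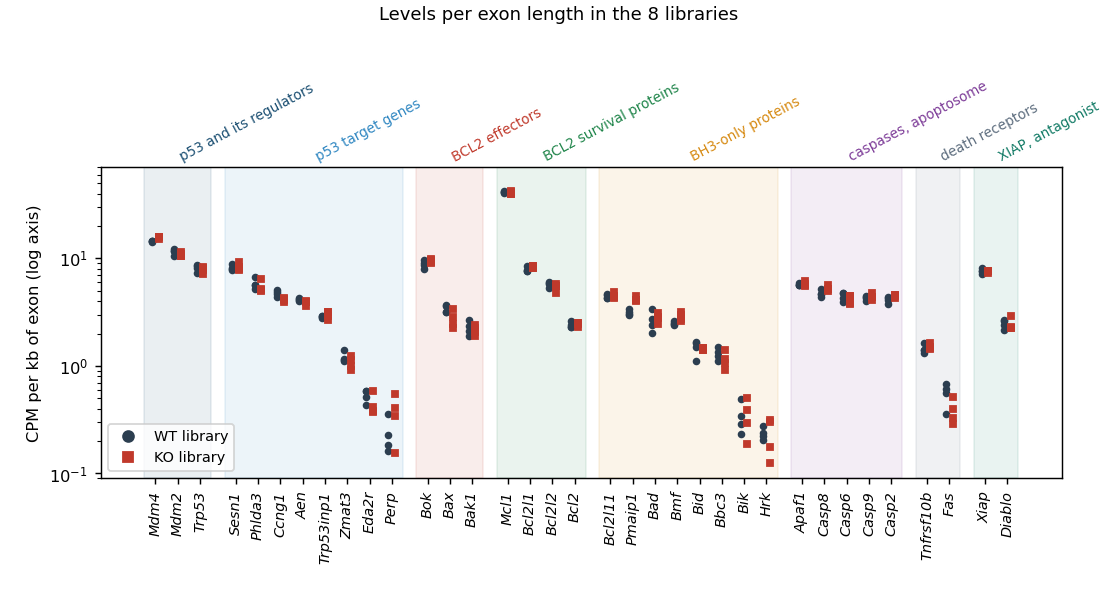
Levels of the 35 genes in CPM per kb of exon on a log axis, by role, with 1 point for each of the 4 WT and 4 KO libraries. Mcl1 stands highest (41.4 CPM per kb in the WT libraries) and Perp and Hrk lowest (0.233 and 0.234), and the library points of the 2 labels overlap or lie close for most genes.

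Caspase genes and Apaf1 had much the same level per length and none was called, with 4 of 5 log2 fold changes above 0. Apaf1, whose protein forms the apoptosome, was read at 51.0, 53.7, 51.2 and 51.1 CPM in WT and 55.8, 51.8, 49.6 and 50.7 in KO libraries. The log2 fold change was 0.00 with a 95% interval of -0.09 to 0.10 (edgeR adjusted p = 0.983), and its sign turned with library totals as the scaling. Casp9, the caspase of the apoptosome, stood at 0.03 (adjusted p = 0.886) and Casp8, the caspase of the death receptors, at 0.15 (0.417). Casp2, an initiator caspase activated by the PIDDosome, was at 0.11 (adjusted p = 0.360) and the executioner Casp6 at -0.09 (0.557). Mean levels of these 5 genes in the WT libraries ranged from 4.12 CPM per kb for Casp2 to 5.73 for Apaf1.

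Of the 2 death receptors Fas was the scarcer, at 10 to 24 counts a library against 119 to 174 for Tnfrsf10b. Tnfrsf10b, the mouse TRAIL receptor, had 7.16, 7.63, 7.63 and 8.85 CPM against 7.77, 8.13, 8.03 and 8.92 CPM, overlapping groups (log2 fold change 0.07, edgeR adjusted p = 0.837). Fas was read at 1.26, 0.743, 1.16 and 1.39 CPM in the WT and 0.673, 0.598, 1.05 and 0.820 CPM in the KO libraries, which overlap (log2 fold change -0.51, 95% interval -1.15 to 0.13, adjusted p = 0.485). Xiap, the X-linked inhibitor of caspases, was read at 77.3, 67.5, 71.8 and 72.6 CPM in WT and 71.5, 72.5, 69.9 and 72.4 in KO libraries, so that the KO libraries lay within the range of the WT libraries (log2 fold change -0.01, 95% interval -0.09 to 0.07, adjusted p = 0.928). Its antagonist Diablo, the gene of SMAC, stood at -0.03 (adjusted p = 0.932).

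Beyond the 35, 114 other genes of the same pathways were followed, and 101 had enough reads to be tested. Of these 2 rose, 4 fell and 95 did not pass, 5.94% called against 5.14% of all genes. With upper-quartile scaling the split turned to 4 higher and 2 lower, and no filter on low counts left 2 calls, Plk2 and Fdxr, both lower. The count was 3 without WT replicate 1, KO replicate 3 or KO replicate 4. Their median log2 fold change was -0.01.

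Of the 34 other p53 target genes 1 was called higher and 3 lower, where 2.35% and 2.8% of all genes tested were so called. Plk2, a polo-like kinase gene, had 44.1, 49.0, 50.2 and 45.0 CPM in WT and 37.7, 40.0, 36.5 and 40.0 in KO libraries, with no overlap. It fell by 0.29 on the log2 scale (standard error 0.05, edgeR adjusted p = 4.59e-06). Fdxr, the mitochondrial ferredoxin reductase gene, also used in steroid synthesis, fell by 0.13 (adjusted p = 0.00129), from 158.8 ± 6.65 to 145.4 ± 4.05 CPM (SD, n = 4), and Ephx1, an epoxide hydrolase gene, fell by 0.13 (0.0432). Cdkn1a rose by 0.65 (standard error 0.20, adjusted p = 0.0335), from 1.75, 1.73, 2.11 and 1.97 CPM to 3.24, 2.39, 3.10 and 3.13 CPM, with no overlap. It rested on 29 to 61 counts a library. Leaving out WT replicate 1, 2 or 4, or KO replicate 1, 3 or 4, ended its call (adjusted p = 0.0557 to 0.0972), as did DESeq2 (0.0801), limma voom (0.0592), no filter on low counts (0.0590) or the marker covariate (0.0923). The call of Ephx1 ended when WT replicate 1 or 3 was left out, or KO replicate 1, 3 or 4 (0.0713 to 0.249), and with 7 other settings (0.0550 to 0.142), DESeq2 (0.0884) and limma voom (0.0837) among them. Plk2 and Fdxr kept their calls in all 19 other fits.

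In the remaining lists 2 genes were called. Of all genes tested 5.14% were called, so 1 call in a list of such a size does not set it apart. Rpl5, a ribosomal protein gene whose product binds MDM2, fell by 0.07 (adjusted p = 0.0446), the 1 call among 21 other regulators of p53. It did not pass once WT replicate 2, 3 or 4 was removed, or KO replicate 1, 2 or 4 (edgeR adjusted p = 0.0560 to 0.310), and with 6 other settings (0.0623 to 0.164). Bclaf1, a BCL2-associated factor gene of RNA processing, rose by 0.08 (adjusted p = 0.0204), the 1 call among 12 other BCL2 family and partner genes tested. The call ended on removal of WT replicate 1 or 3, or KO replicate 2 or 3 (0.0633 to 0.140), with library totals (0.118), no filter (0.0922) or no robust dispersion (0.0521), and the offset for length and GC content took it to 0.03 (0.561). By edgeR no gene passed among 11 other caspases and executioners, 15 death receptor signalling genes or 8 inhibitors of apoptosis, with 2, 1 and 1 at an unadjusted p under 0.05. DESeq2 and limma voom also called 0 of these 34. The smallest p in each belonged to Dffb, a nuclease gene of DNA fragmentation (log2 fold change 0.34, adjusted p = 0.105), the neurotrophin receptor gene Ngfr (0.08, 0.292) and Birc2, the gene of cIAP1 (0.09, 0.0765). Birc2 passed with upper-quartile scaling (0.10, adjusted p = 0.0439).

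**Figure D4:**
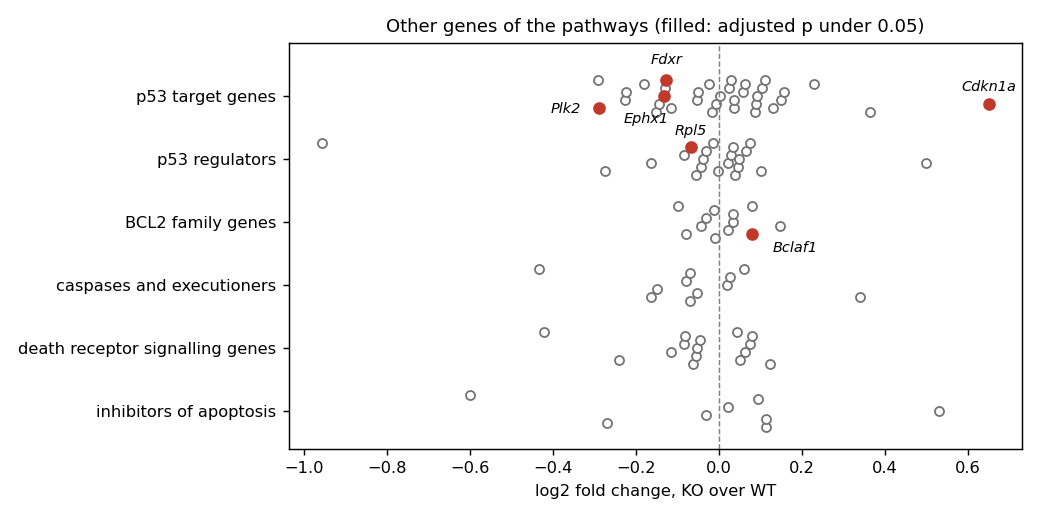
Log2 fold changes, KO over WT, of the 101 other pathway genes that were tested, 1 row per list. Filled points passed an adjusted p under 0.05: Cdkn1a (0.65) and Bclaf1 (0.08) to the right of 0, and Plk2 (-0.29), Fdxr (-0.13), Ephx1 (-0.13) and Rpl5 (-0.07) to the left.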

How the data were processed

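Total RNA of sorted germ cells was sequenced after preparation with a stranded kit meant for low amounts of RNA, per the labels' protocols. The deposited table holds raw counts per gene, and the authors' notes name STAR 2.5.2b, Subread, featureCounts and DESeq2 with GRCm38, without roles or settings. Gene lengths are those of the deposited table, and equal the merged exon bases of its coordinates for the 35 genes. Whether reads at several positions or strand were used is not stated. Symbols from GENCODE M21 matched 55141 of 55487 IDs.

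Counts were tested in R 4.3.3 with edgeR 4.0.16: filterByExpr, TMM scaling, robust quasi-likelihood test, two-sided, no covariate, Benjamini-Hochberg over 23190 genes, called under 0.05. Intervals are at 95%. CPM per kb divides by exon length, which understates genes with many alternative exons. On simulated counts for KO against WT (23190 genes) the test recovered 16% of 50 genes changed 1.1-fold, 60% at 1.25-fold, 94% at 1.5-fold and 100% at 2-fold, and 4.26% of its 141 calls were false. The changed genes were drawn only from those with a mean of at least 50 counts a library. The shares recovered therefore do not cover scarcer members such as Perp, Fas and Hrk. The 141 calls compare with 1193 in the data. With fewer changed genes the adjustment of p is stricter, so these shares do not carry over to the real test.

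The members and lists were chosen with earlier results of these data known. Named with all libraries were members called, with unadjusted p under 0.05 or with groups that do not overlap, and the most abundant of each role; of each other list up to 4 called genes, or the 1 with the smallest p. Beyond this rule, Trp53, Mdm2, Bbc3 and Fas were given by library, and Trp63, Trp73 and the untested genes named, after their values were seen. The alternatives were other scalings and filters, DESeq2 1.42.0, limma 3.58.1 voom, no robust dispersion, a replicate block, a marker covariate, each library left out, and thresholds of 0.01 and 0.10. An offset for GC content and length was chosen after seeing the data.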

Additional observations from a re-analysis of the deposited data

Results flagged for a closer look

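In each group of 4 libraries the highest and lowest value of the 35 genes, the 9 other genes named by rule and Rhox10 were compared with the rest, and 5 of 90 groups held a library far from the other 3. Chance flags about 1 in 20. Phlda3 stood at 9.92 CPM in KO replicate 2, with the other KO libraries at 7.82 to 8.01. Zmat3 stood at 16.1 CPM in WT replicate 1, against 12.7 to 13.1 in the other WT libraries. Apaf1 was at 53.7 CPM in WT replicate 2 (others 51.0 to 51.2) and Diablo at 17.8 CPM in KO replicate 1 (others 13.9 to 14.04). Cdkn1a was at 2.39 CPM in KO replicate 2, below the other KO libraries at 3.10 to 3.24 and above every WT library.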

How the results depend on the processing

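Mdm4 and Pmaip1 were called in each of the 19 other fits and at both other thresholds, with log2 fold changes of 0.08 to 0.13 and 0.38 to 0.45. No other member passed in any fit; the smallest adjusted p was 0.0821, for Ccng1. Of 645 member values, 615 kept sign and side of the threshold, and 30 values of 11 uncalled members changed sign. Without 1 library at a time these ranged from -0.017 to 0.068 for Sesn1, -0.149 to 0.016 for Bak1, -0.0067 to 0.060 for Bcl2, -0.017 to 0.041 for Bcl2l11, -0.160 to 0.010 for Bid, -0.018 to 0.223 for Bad, -0.226 to 0.171 for Hrk, -0.030 to 0.026 for Apaf1, -0.0055 to 0.063 for Casp9, -0.047 to 0.019 for Xiap and -0.117 to 0.0098 for Diablo. With the length and GC offset Bcl2 was -0.010, Bcl2l11 -0.0025 and Apaf1 -0.025. With the marker covariate Bad was -0.051 and Apaf1 -0.025. Apaf1 was -0.012 with library totals and -0.0014 with limma voom. The cause was not tested.

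Calls over all genes were 1193 (544 higher, 649 lower), 794 with DESeq2, 678 at an adjusted p under 0.01, 1262 with library totals (426 higher, 836 lower), 1188 with upper-quartile scaling (633 higher, 555 lower) and 898 to 1040 without 1 library. Calls among the 114 other genes were 6, but 2 with no filter, 2 at 0.01, 3 with DESeq2, 3 with limma voom, 3 with no robust dispersion and 3 to 5 without 1 library. Rhox10 stayed uncalled (-0.42 to -0.14 without 1 library).

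No pairing by replicate number was seen. Same-numbered libraries had correlations of 0.012, 0.027, -0.014 and -0.016 in their deviations from the group means. Not every library correlated best with its own number. All pairs of a WT and a KO library lay near 0, from -0.038 to 0.033, so a weak pairing could be missed. With the replicate block 1249 genes, the same 2 members and 7 other genes were called.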

Other observations

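The genes of the p53 relatives p63, known to guard the oocyte genome, and p73 were read at low counts. Trp63 had 21, 27, 15 and 27 counts in the WT libraries and 21, 7, 7 and 10 in the KO libraries, so that KO replicate 1 lay among the WT libraries and the others below them. Its log2 fold change was -0.96 (95% interval -1.623 to -0.288, edgeR adjusted p = 0.0814, not called). Without KO replicate 1 it was -1.49 (adjusted p = 0.00798), without WT replicate 3 -1.12 (0.0488) and with the marker covariate -1.35 (0.0165). In no other fit did Trp63 pass. Without any 1 of the other libraries it ranged from -0.95 to -0.76 (adjusted p = 0.140 to 0.307). DESeq2 gave an adjusted p of 0.219, limma voom 0.0912 and no filter on low counts 0.134. Trp73 had 5 to 15 counts in the WT and 7 to 23 in the KO libraries (log2 fold change 0.50, adjusted p = 0.595).

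Of the other pathway genes, 13 were too low to be tested. They included the death ligand genes Fasl, Tnf and Tnfsf10, the inflammatory caspases Casp1 and Casp4, and the leukocyte survival genes Bcl2a1a, Bcl2a1b and Bcl2a1d.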
